A study of Mus musculus with 77 samples.

Results

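The genes of major histocompatibility complex (MHC) and antigen presentation were described in whole blood of stressed mice and in the brain mRNA bound to AGO2. The 10 genes were chosen by name: the class I heavy chains H2-K1 and H2-D1, the light chain gene B2m, the transporter genes Tap1 and Tap2, the class II chains H2-Aa, H2-Ab1 and H2-Eb1, the invariant chain gene Cd74, and Ciita. All 10 were among the 13084 genes of the blood mRNA table, and 5 of them were among the 16587 genes of the table of AGO2-bound mRNA. Male mice of 2 inbred strains, C57BL/6NCrl (here B6) and DBA/2NCrl (here D2), went through chronic social defeat stress (CSDS), in which a mouse meets a new aggressor every day, or were housed beside an unfamiliar mouse without physical contact (controls). Defeated mice that avoided a social target more than same-strain controls did were called susceptible, and the others resilient. Blood came from 5 control, 5 resilient and 5 susceptible B6 mice and from 5 control and 5 susceptible D2 mice. The AGO2 libraries came from the BNST (bed nucleus of the stria terminalis), a brain region of the anxiety circuit, of B6 mice only, with 5 control, 5 resilient and 4 susceptible pools of 3 BNST each. The mice were 8 weeks old, and tissue was taken 6 to 8 days after the last defeat. The mice to be sequenced had been selected for strong phenotypes, and susceptibility was defined by 1 behavioral test.

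Class I molecules consist of a heavy chain and the light chain encoded by B2m, and they show peptides from inside the cell to CD8+ T cells on nearly all nucleated cells. The peptides reach the endoplasmic reticulum through the transporter formed by Tap1 and Tap2. Class II molecules are pairs of an alpha and a beta chain (H2-Aa with H2-Ab1, and H2-Eb1 with the product of H2-Ea), made mainly by B cells, dendritic cells and macrophages, where Cd74 guides them through the cell and Ciita is the coactivator that switches their genes on. B6 mice carry the b haplotype of the mouse MHC (H2) and D2 mice the d haplotype. The b haplotype makes no H2-Ea chain because of a promoter deletion, and the d haplotype holds a further class I gene, H2-L, that is close in sequence to H2-D1.

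Promoter sequences of RefSeq (GRCm38.p6) are shown for the genes on which the results below turn, from 250 bases before to 50 bases after the annotated start. A usable entry was found for 6 of the 10 genes. In the class II chains H2-Aa (chr17:34287774-34288073, minus strand) and H2-Eb1 (chr17:34305617-34305916, plus strand), whose levels moved together closely, the capitals mark CTGATTGG, the Y box that the factor NF-Y binds. In the heavy chains H2-K1 (chr17:34000298-34000597, minus strand) and H2-D1 (chr17:35262844-35263143, plus strand), of which H2-K1 differed between the strains, they mark GGGGATTCC, a kappaB site. In B2m (chr2:122147437-122147736, plus strand) they mark GAAANNGAA, the paired elements of interferon response sites. B2m was the gene called in the AGO2-bound mRNA, with no limma adjusted p under 0.05.
H2-Aa: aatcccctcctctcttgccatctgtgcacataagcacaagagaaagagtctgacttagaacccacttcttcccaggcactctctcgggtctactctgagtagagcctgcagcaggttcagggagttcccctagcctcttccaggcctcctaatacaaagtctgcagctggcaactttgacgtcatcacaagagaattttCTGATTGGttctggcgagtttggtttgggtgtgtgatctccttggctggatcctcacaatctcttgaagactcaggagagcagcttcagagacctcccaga
H2-Eb1: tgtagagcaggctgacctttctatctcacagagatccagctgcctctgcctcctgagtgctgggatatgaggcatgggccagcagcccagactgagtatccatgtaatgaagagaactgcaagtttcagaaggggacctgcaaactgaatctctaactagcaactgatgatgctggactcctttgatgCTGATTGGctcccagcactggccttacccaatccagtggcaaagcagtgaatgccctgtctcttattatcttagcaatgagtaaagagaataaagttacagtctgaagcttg
H2-K1: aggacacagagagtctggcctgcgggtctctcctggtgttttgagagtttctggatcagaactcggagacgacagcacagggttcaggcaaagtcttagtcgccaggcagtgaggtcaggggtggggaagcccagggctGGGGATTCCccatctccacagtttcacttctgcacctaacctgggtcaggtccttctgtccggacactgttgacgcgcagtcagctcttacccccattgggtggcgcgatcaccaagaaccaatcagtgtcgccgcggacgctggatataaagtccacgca
H2-D1: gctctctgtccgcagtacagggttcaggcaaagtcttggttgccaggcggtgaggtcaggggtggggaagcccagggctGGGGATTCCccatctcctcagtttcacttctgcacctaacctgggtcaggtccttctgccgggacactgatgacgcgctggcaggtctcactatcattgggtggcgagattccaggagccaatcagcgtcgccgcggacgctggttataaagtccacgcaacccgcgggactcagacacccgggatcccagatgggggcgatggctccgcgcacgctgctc
B2m: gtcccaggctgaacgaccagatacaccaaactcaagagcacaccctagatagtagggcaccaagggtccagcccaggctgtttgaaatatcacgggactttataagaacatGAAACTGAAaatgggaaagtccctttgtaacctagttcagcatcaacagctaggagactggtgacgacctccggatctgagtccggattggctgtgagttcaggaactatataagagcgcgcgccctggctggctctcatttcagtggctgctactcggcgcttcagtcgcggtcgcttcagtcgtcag

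On either strand, CTGATTGG was in 4.1%, GGGGATTCC in 0.25% and GAAANNGAA in 8.56% of the 32851 RefSeq promoter windows of this length. The Y box lay 51 bases before the start of H2-Aa and 62 before that of H2-Eb1, on the coding strand of both. H2-K1, H2-D1 and Tap1 held the same letters on the opposite strand, and B2m held only the shorter core ATTGG, which is part of CTGATTGG and was in 37.4% of the windows. The kappaB letters lay 111 bases before the annotated start of H2-K1 and 171 before that of H2-D1. The opposite-strand CTGATTGG was displaced likewise, at position 9 in H2-K1 and -53 in H2-D1, so these distances depend on the annotated starts. These matches describe the letters of the B6-derived reference and say nothing of binding in the D2 haplotype.

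The values are log2 CPM (read counts scaled to library size), each scaled by the authors to an effective library size. The blood libraries held 9751603 to 15878495 reads on the table's genes (median 13290205) and the AGO2 libraries 3701281 to 10659882. In blood the 10 genes had between 171 (Tap2) and 44048 reads (B2m) per library. In the AGO2 libraries the 5 genes had far fewer, between 7 (Tap1) and 116 (B2m). In 3 B6 blood libraries (resilient 1 and 2, susceptible 3) the effective size was 0.644 to 0.651 of the reads on the table's genes. The groups of 2 D2 mice are in doubt, since their column names contradict their labels: control 2 has a column named susceptible and susceptible 2 a column named control. The labels were followed, and each call on the 10 genes that the other reading changes is given both ways. The replicates are separate mice in blood and separate pools in BNST.

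By position, 7 of the genes lie in the MHC on chromosome 17 between 33996017 (H2-K1) and 35267499 (H2-D1, GRCm38), B2m lies on chromosome 2 (122147686 to 122153083) and Ciita on chromosome 16 (10480059 to 10528418). Per kilobase of exon, B2m was the most abundant of the 10 mRNAs in blood (median over 25 mice 10.99 log2 CPM per kilobase). The heavy chains followed with 7.93 for H2-D1 and 7.37 for H2-K1, close to the class II chains H2-Aa (7.21), H2-Eb1 (7.11) and H2-Ab1 (6.48). The invariant chain gene Cd74, whose protein pairs with the class II chains, stood well below them at 4.13. The transporter genes Tap1 (3.19) and Tap2 (2.82) and the coactivator gene Ciita (2.06) had the lowest levels of the group, as medians on the same scale. The ranges of H2-K1, H2-Aa and H2-Eb1 over the 25 mice overlapped, and their order changed with the strain. In B6 controls H2-K1, at a mean of 7.75, stood above H2-Aa (7.38), H2-Eb1 (7.27) and H2-Ab1 (6.71), and in D2 controls, at 6.32, below H2-Aa (7.20), H2-Eb1 (7.02) and H2-Ab1 (6.37). No window of 75 bases within the Cd74 exons was found elsewhere in the reference chromosomes, and 12 of its exon bases are shared with Mir5107. Why Cd74 stood below its partners was not tested. Of the windows of H2-K1 and H2-D1, 6.59% and 7.04% were also found elsewhere in the reference chromosomes, and reads from these windows cannot be assigned to 1 place.

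The first question was whether the blood mRNA of these genes differed between stressed and control mice. A gene was called when its limma p was under 0.05 and its fold change at least 1.2. In B6 mice, 0 of the 10 genes were called between resilient mice and controls, where 2.11% of all genes were, and 0 between susceptible mice and controls, where 4.5% were. Between susceptible and resilient B6 mice 0 were called, against 2.03% of all genes, and in D2 susceptible mice against D2 controls 0, against 1.57%. In these comparisons 0 of the 10 also had an unadjusted limma p under 0.05 whatever the fold change, and 0 were called with voom weights. No gene of the whole table had an adjusted p under 0.05 in any of them.

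The intervals give the size of change that these groups leave possible. In the comparison of resilient with control B6 mice the 10 log2 fold changes lay between -0.35 (Cd74) and 0.08 (B2m), and their 95% confidence intervals between -0.90 and 0.61. In susceptible B6 mice they lay between -0.36 (Cd74) and 0.31 (B2m), with intervals within -0.91 to 0.84. In D2 mice they lay between -0.38 (B2m) and 0.16 (Ciita), with intervals within -0.92 to 0.64. In the deposited scaling only B2m of the 10 genes was above 0 in both comparisons with the B6 controls, which share those controls. The medians of the 10 genes were -0.12 in resilient and -0.23 in susceptible B6 mice, beside 0.02 over all genes in both.

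**Figure D1:**
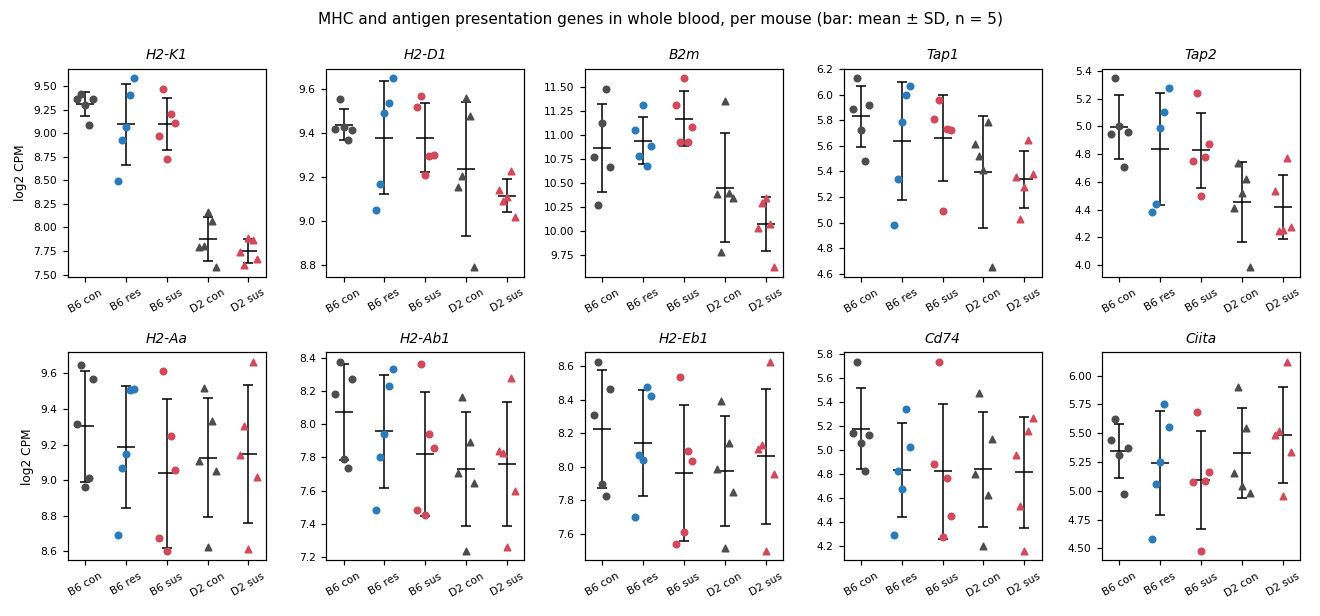
Log2 CPM of each of the 10 genes in whole blood, 1 point per mouse, by strain and group, with the mean ± SD of the 5 mice. The H2-K1 points of D2 mice, at 7.58 to 8.16, all lie below the B6 points, and within each strain the groups overlap in every panel.

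H2-K1, the class I heavy chain of the K locus, was measured at 9.36, 9.42, 9.30, 9.09 and 9.36 log2 CPM in the B6 controls. The resilient B6 mice had 8.49, 8.93, 9.07, 9.40 and 9.59, and the susceptible ones 8.97, 9.47, 8.72, 9.20 and 9.11. The control mice were tight and lay inside the wider range of the resilient mice. The log2 fold change was -0.21 in either comparison. H2-D1, the heavy chain of the D locus, ranged from 9.37 to 9.56 in B6 controls, from 9.05 to 9.65 in resilient and from 9.21 to 9.57 in susceptible mice, with log2 fold changes against controls of -0.06 in both.

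The 3 libraries with the small effective size were low in most of these genes. H2-K1 stood 0.86 below the mean of the rest of its group in resilient 1, 0.42 below in resilient 2 and 0.46 below in susceptible 3, as log2 differences. Tap1 stood 0.97, 0.61 and 0.72 below, and H2-Aa 0.69, 0.32 and 0.55 below. The summed level of the 9 erythroid markers was 18.08 log2 CPM in resilient 1 and 18.22 in resilient 2, and 16.94 to 17.59 in the B6 controls. Without these 3 libraries, an alternative chosen after the data were seen, the 10 log2 fold changes of resilient against control mice lay between -0.16 and 0.17. The part of these libraries in the lower values was not tested.

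The title prefixes EC3 and EC4 divide the B6 mice into sets, and the direction was not the same in both. Among EC3 mice (3 resilient and 2 controls) the median log2 difference of the 10 genes was -0.54 and 1 gene was above 0. Among EC4 mice (2 resilient and 3 controls) it was 0.31 and 9 genes were above 0. The 3 resilient EC3 mice include resilient 1 and 2, whose libraries had the small effective size, and susceptible 3 is an EC4 mouse. The part of these libraries in the difference between the sets was not tested. For susceptible against control mice the medians were -0.15 and -0.19 in the same sets, and for susceptible against resilient mice 0.35 and -0.52. The D2 mice fall into 3 prefixes with a single mouse of at least 1 group in each, and medians of 0.07 (ED3), -0.31 (ED4) and 0.01 (ED6).

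B2m, the light chain shared by all class I molecules, varied widely among the B6 controls (SD 0.46, n = 5). B6 controls had 10.77, 10.28, 11.12, 11.48 and 10.67 log2 CPM, and susceptible B6 mice 11.32, 10.93, 11.60, 10.93 and 11.08. The groups overlapped, and the log2 fold change of 0.31 (SE 0.26) had an exact permutation p = 0.246 and, by limma, an adjusted p of 0.98. D2 controls had 10.38, 9.78, 11.36, 10.40 and 10.35, and D2 susceptible mice 10.03, 10.29, 10.35, 10.08 and 9.63. These overlapped as well, with control 3 far above the other D2 mice. By the labels the D2 difference was -0.38 (SE 0.26, exact permutation p = 0.206, limma adjusted p = 0.999). Within the title prefixes the B2m difference was -0.35 (ED3), 0.46 (ED4) and -1.08 (ED6).

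Whether B2m responded differently in the strains was tested as an interaction. The D2 effect minus the B6 effect was -0.69 (SE 0.37, limma adjusted p = 0.942), and 0 of the 10 genes were called, against 5.37% of all genes. With the D2 groups taken from the column names, B2m was called in D2 susceptible mice against controls (-0.59) and in the interaction (-0.89). Without both mice in question the values were -0.60 and -0.91, both called. Leaving out D2 control 2, 1 of these mice, also gave a call in both (-0.55 and -0.86), and leaving out B6 control 4 gave a call in the interaction (-0.84).

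B2m moved with the markers of platelets. Over the 25 mice, after the group means were taken out, the median correlation of B2m with the 8 platelet markers was 0.893, and with the 12 B cell markers it was -0.674. These are descriptions over mice that share library depth and scaling. In B6 susceptible mice against controls 6 of the 8 platelet markers were called, all higher, for example Gp1bb, a platelet surface receptor (log2 fold change 0.94, limma adjusted p = 0.968). In D2 susceptible mice against controls 0 of the 8 were above 0 (median -0.39), and in the interaction, where B2m was -0.69, 6 of 8 were called lower (median -1.25). In bulk blood more platelets and more B2m mRNA per cell cannot be told apart, and the part of platelets in the B2m values was not tested. The level of B2m minus the mean level of the platelet markers was 1.98 to 3.34 log2 units in the 15 B6 mice (median 2.55) and 1.28 to 2.35 in the 10 D2 mice (median 1.47).

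**Figure D2:**
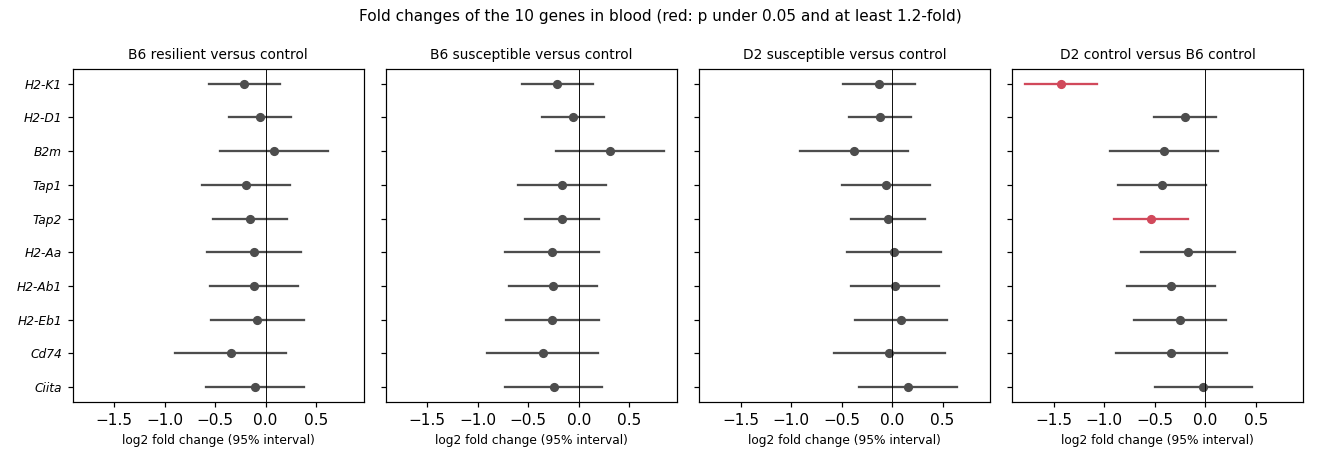
Log2 fold changes of the 10 genes in blood with 95% confidence intervals, 1 panel per comparison, in red where the gene was called. In the stress comparisons every interval spans 0, and against B6 controls the D2 controls were lower in H2-K1 (-1.43) and Tap2 (-0.54).

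The next question was how the strains differ without stress. The mean was lower in D2 than in B6 controls for all 10 genes, though Ciita changed sign when values were scaled to the recovered reads, and 2 of them, H2-K1 and Tap2, were called, where 26.4% of all genes were called and 15.5% had an adjusted p under 0.05. The median log2 fold change of the 10 genes was -0.34, beside 0.01 over all genes. Strain and the title prefixes are nested, so strain and prefix cannot be told apart, and the labels do not say what the prefixes stand for. Reads of both strains were aligned to a genome that comes from B6, so that for the polymorphic MHC genes a lower level and a poorer alignment cannot be told apart.

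H2-K1 was 7.79, 7.80, 8.16, 8.07 and 7.58 log2 CPM in the D2 controls. All lay below all B6 controls, and so did the D2 susceptible mice at 7.74, 7.60, 7.88, 7.86 and 7.67. The mean was 7.88 ± 0.23 (SD, n = 5) in D2 and 9.31 ± 0.13 (SD, n = 5) in B6 controls. The log2 fold change was -1.43 (SE 0.17), which is 0.372 of the B6 level, with a limma adjusted p of 9.41e-07. The exact permutation test gave p = 0.00794, the smallest that 5 against 5 mice allow. Every D2 control lay below every B6 control for 5.59% of all genes, and 12.0% were separated in either direction.

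H2-D1 did not show this pattern. D2 controls had 9.15, 9.20, 9.56, 9.47 and 8.79 log2 CPM, a range that overlapped the B6 controls, and the log2 fold change was -0.20. Within a mouse H2-K1 was 0.05 to 0.56 log2 units below H2-D1 in B6 mice (median difference -0.14) and 1.21 to 1.49 below it in D2 mice (median difference -1.38). H2-L was not among the genes measured, and whether its reads in D2 mice were counted on H2-D1 was not tested. The summed reads of 15 class I heavy chain genes were not called between the control groups (log2 fold change -0.08, SE 0.16, limma adjusted p = 0.827). In this sum a read counts the same on any of these genes, and reads counted on none of them are missing. This sum was 10.82 ± 0.07 (SD, n = 5) in B6 and 10.74 ± 0.18 (SD, n = 5) in D2 controls, and the groups overlapped. A list of other class I heavy chains, without H2-K1 and H2-D1 but with Mr1 and Cd1d1, was higher in D2. Its summed level was 8.89 to 9.07 log2 CPM (median 8.97) in B6 and 9.38 to 10.19 (median 9.86) in D2 controls. The part of single genes in the flat sum was not tested.

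Of the transporter genes, Tap2 was lower in D2 controls. Tap2 was 4.95, 5.35, 5.00, 4.71 and 4.96 in B6 controls and 4.41, 4.73, 4.52, 4.62 and 3.98 in D2 controls. The highest D2 control lay just above the lowest B6 control. The log2 fold change was -0.54 (SE 0.18, limma adjusted p = 0.0413), and the exact permutation test gave p = 0.0159. The call was lost when values were scaled to the recovered reads (-0.37), a scaling that moved the median of all genes by 0.17. Tap1 was -0.43 (exact permutation p = 0.0635, limma adjusted p = 0.189). It was called with the D2 groups of the column names (-0.53), with voom weights (-0.45), with quantile normalization (-0.50), and without B6 control 4 (-0.52), D2 control 1 (-0.49) or D2 control 4 (-0.53), among others. Its lowest value, 4.65, was in D2 control 5. B2m was -0.41 (exact permutation p = 0.23) and was called without D2 control 3 (-0.64) or B6 control 2 (-0.56), and H2-Ab1 was -0.34 and was called without D2 control 2 (-0.45).

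**Figure D3:**
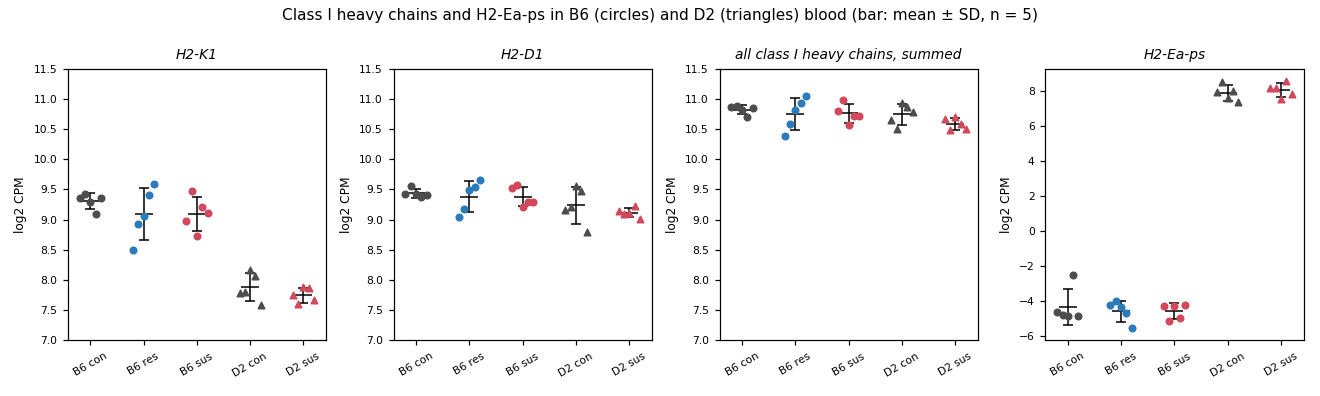
Log2 CPM in blood of H2-K1, H2-D1, the summed class I heavy chains and H2-Ea-ps, 1 point per mouse, B6 as circles and D2 as triangles, with the mean ± SD of 5 mice per group. H2-K1 and H2-Ea-ps separate the strains in opposite directions, and the summed heavy chains overlap (10.39 to 11.04 in B6 and 10.49 to 10.94 in D2).

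The class II chain that the b haplotype lacks gave the clearest strain difference. H2-Ea-ps, the annotated gene of the E alpha chain, lies on chromosome 17 (34341959 to 34344645, minus strand, GRCm38). It had 0 reads in 14 of the 15 B6 libraries, 2 reads in B6 control 4, and 1776 to 6864 reads in the 10 D2 libraries. Between the control groups this was 0.0287 against 254 CPM, a ratio of 8867. The 95% counting interval of this ratio, on reads pooled over mice, was 2454 to 73224 and does not measure the spread between mice. Every library thus matched the haplotype of its labelled strain. The chain that pairs with it, H2-Eb1, ranged from 7.82 to 8.63 in B6 controls and from 7.51 to 8.39 in D2 controls, so the groups overlapped.

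Of the other genes of the pathway together with 14 interferon response genes, 63 were in the blood table. Between the control groups 12 of them were higher in D2 and 21 lower (52.4%, beside 26.4% of all genes), and 27 had an adjusted p under 0.05. In B6 susceptible mice against controls 1 was higher and 2 were lower, and 0 were called in the other stress comparisons. The 3 genes are 4.76% of the 63, near the 4.5% of all genes called there. In the interaction of strain and susceptibility 2 were higher and 1 lower (Rfxap, Cd1d1 and H2-Q2), which is 4.76%, beside 5.37% of all genes. The other class I heavy chains went both ways, with 7 of 15 higher and 4 lower in D2. Mr1, which presents vitamin metabolites to MAIT cells, was 2.76 log2 units higher in D2 controls. H2-Q1 had 1 read in all B6 controls together and 190 in the D2 controls, and H2-Q2 had 11 and 1154. H2-Q2, with 24 reads in the B6 susceptible mice, was called higher there. Of the windows of 75 bases of H2-Q4, H2-Q6 and H2-Q7, 17.03%, 26.87% and 51.45% were also found elsewhere in the reference chromosomes. Reads from these windows cannot be assigned to 1 place. The windows of H2-Q1, H2-Q2 and H2-Q5 were not examined, so how uncertain their reads are was not tested. H2-Eb2, another class II beta chain gene, was 3.09 lower in D2. The interferon genes were mostly lower in D2, with 9 of 14 lower and 1 higher, and Irf7, the factor that amplifies the interferon response, was 2.89 lower (limma adjusted p = 1.04e-09). In B6 susceptible mice Rfxap, a subunit of the RFX complex on class II promoters, was 0.59 lower (limma adjusted p = 0.968), and H2-Q5 0.47 lower.

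The class II chains moved together across mice. After the group means were taken out, the correlations among H2-Aa, H2-Ab1 and H2-Eb1 over the 25 mice were 0.986 to 0.988. Cd74 and Ciita followed them less closely, with 0.755 to 0.906 for the remaining class II pairs. The H2-Aa level was 9.32, 9.65, 8.96, 9.01 and 9.57 in B6 controls and 8.67, 9.61, 8.60, 9.25 and 9.06 in susceptible B6 mice. The spread within a group was wider than the difference of -0.26 between groups (exact permutation p = 0.286). Cd74 had its lowest B6 level, 4.28, in susceptible 3 and reached 5.73 in susceptible 2 and in control 2. Leaving out susceptible 2 made Cd74 a called gene (-0.58), and no other single mouse did.

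The genes most like the mean of the class II chains and Cd74 were those of B cells. The closest were Bank1, a B cell scaffold protein (0.955), Igkc (0.954) and Ighd (0.948), the constant regions of immunoglobulin light and IgD heavy chains, then H2-DMb2 (0.940), a subunit of the peptide editor, Sh3bp5, St6gal1, Fchsd2 and Ighm (0.921). The median correlation with the 12 B cell markers was 0.905, and over all 13084 genes it was 0.0189. In whole blood fewer B cells and less class II mRNA per B cell cannot be told apart. Of the 12 B cell markers, 11 were called lower in D2 controls than in B6 controls, and Ighd was -0.07 and not called. The class II chains minus the B cell markers, as mean levels, were 1.96 to 2.27 log2 units in the B6 mice (median 2.13) and 2.32 to 2.74 in the D2 mice (median 2.52).

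**Figure D4:**
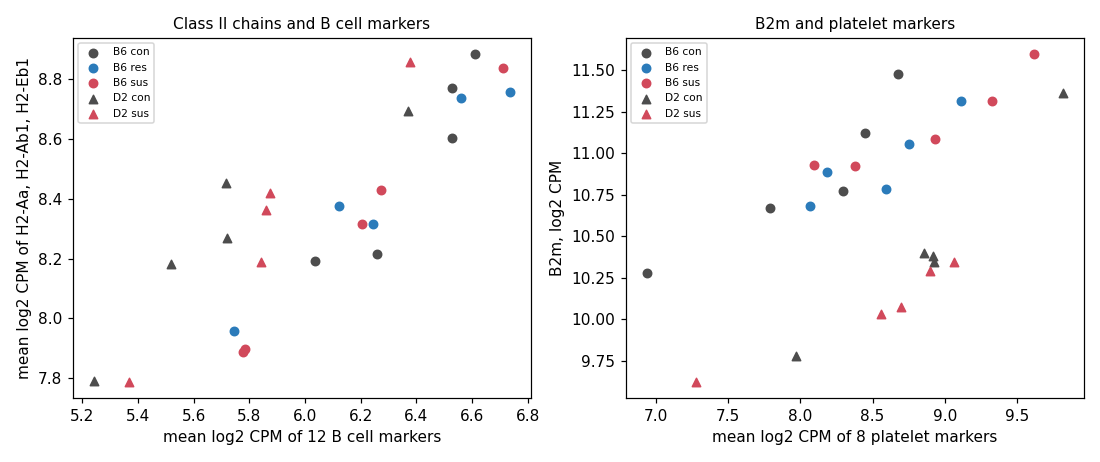
Mean log2 CPM of the class II chains against that of 12 B cell markers, and B2m against the mean of 8 platelet markers, 1 point per mouse, B6 as circles and D2 as triangles. Both pairs rise together within each strain, and relative to the markers the D2 mice lie higher for the class II chains and mostly lower for B2m.

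The class I genes were less tied to the B cell markers. H2-K1, Tap1 and Tap2 had median correlations with the 11 T cell markers of 0.659, 0.606 and 0.648, and with the erythroid markers of -0.646, -0.712 and -0.769. With the B cell markers they were 0.512, 0.590 and 0.702, so that Tap2 was closer to these than to the T cell markers. With the 9 monocyte markers H2-K1 had 0.437 and Tap1 0.691, and H2-D1 had 0.650 with them and 0.533 with the T cell markers. The genes most like the mean of H2-K1, H2-D1 and B2m were Tm6sf1 (0.842), Cep170 (0.833), Vps26c (0.818), Sla (0.814), Sap30l, A930005H10Rik, Cmtm6 and Fyn, a kinase of T cell signalling (0.785). These were weaker than the class II ones. Of the cell type lists, the 7 markers of natural killer (NK) cells had the highest median correlation with this class I mean (0.601). The platelet markers had 0.471, the monocyte markers 0.326 and the T cell markers 0.261. B2m did not follow the heavy chains (the class I pairs ran from -0.356 to 0.887), and its part in the weaker correlations was not tested.

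The last question was whether these mRNAs differed in the AGO2 immunoprecipitate of the BNST. AGO2 is the catalytic protein of the microRNA-induced silencing complex, and the mRNA bound to it is not the total level. The class II genes, Cd74 and Ciita were not in the AGO2 table, which holds the genes that passed the authors' filter, and were not analysed there. Of the 5 class I genes present, 1 was called in resilient pools against controls (background 17.7%), 1 in susceptible pools against controls (background 18.9%) and 0 in susceptible against resilient pools (background 2.14%, and 0 with an unadjusted limma p under 0.05). The called gene was B2m in both comparisons, which share the control pools.

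B2m in AGO2 was 3.72, 4.18, 3.82, 3.61 and 3.53 log2 CPM in control pools, 3.31, 3.47, 3.44, 3.26 and 2.92 in resilient pools and 3.65, 3.01, 3.05 and 3.51 in susceptible pools. Every resilient pool lay below every control pool, and the susceptible pools overlapped the controls. For resilient pools the log2 fold change was -0.49 (SE 0.18, limma adjusted p = 0.131), and the exact permutation test gave p = 0.00794. All resilient pools below all control pools was seen for 2.18% of all genes, and separation in either direction for 5.18%. For susceptible pools the log2 fold change was -0.47 (SE 0.19, limma adjusted p = 0.159), with p = 0.0635 by exact permutation. In that comparison 5.05% of all genes had every susceptible pool below every control pool, and B2m was not among them.

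The call in susceptible pools was lost when values were scaled to the recovered reads (-0.39) and without control 2, susceptible 2 or susceptible 3. The call in resilient pools was kept under every alternative, from -0.55 to -0.39. The susceptible pools were also low in markers of the choroid plexus. The summed level of its 6 markers was 5.11 to 7.61 log2 CPM in control, 4.72 to 7.15 in resilient and 3.91 to 6.01 in susceptible pools, and 5 of the 6 were called lower in susceptible pools. The 6 erythroid markers summed to 5.28 to 5.57 in control, 4.97 to 5.38 in resilient and 4.88 to 5.28 in susceptible pools, and 2 of them were called lower in resilient and 1 in susceptible pools. The summed neuronal markers were 10.94 to 11.09, 10.82 to 10.95 and 10.49 to 10.92 in the same order. The summed microglial markers were 7.44 to 7.70, 7.46 to 7.76 and 7.32 to 7.74 in the same order. The 5 oligodendrocyte markers summed to 11.60 to 12.22 in control, 10.89 to 11.93 in resilient and 10.82 to 11.58 in susceptible pools. Of them, 1 was called higher and 1 lower in resilient pools, and 1 higher and 2 lower in susceptible pools. The 6 endothelial markers summed to 7.12 to 7.40, 7.07 to 7.33 and 6.97 to 7.24. The median correlation of B2m with the choroid plexus markers, group means removed, was 0.213 over the 14 pools, and with the erythroid markers 0.171. Their part in the B2m values was not tested.

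**Figure D5:**
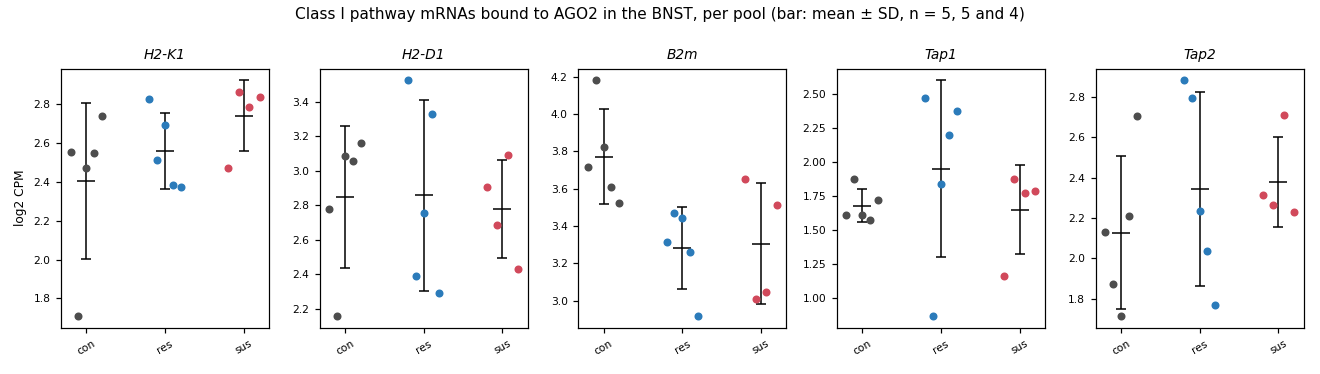
Log2 CPM of the 5 class I genes in AGO2-bound mRNA of the BNST, 1 point per pool, by group, with the mean ± SD of 5 control, 5 resilient and 4 susceptible pools. All resilient B2m points (2.92 to 3.47) lie below the control points (3.53 to 4.18), and in the other panels the groups overlap.

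The heavy chains and the transporter genes were not called in the AGO2 pools. H2-K1 was 1.71 to 2.74 in control, 2.37 to 2.83 in resilient and 2.47 to 2.87 in susceptible pools, and H2-D1 2.16 to 3.16, 2.29 to 3.52 and 2.43 to 3.09. Tap1 spread most in the resilient pools, at 2.47, 0.87, 1.84, 2.20 and 2.37, and without resilient 2 it was called higher than in controls (0.54). The within-group correlations among the class I genes ran from -0.508 to 0.550, over values of few reads. The genes most like the mean of H2-K1, H2-D1 and B2m were Mocs3 (0.923), Apool, Gm8493, Zcchc2, Mypop, Akr7a5, Gpatch2 and Angpt2 (0.849), none of them a gene of the pathway lists.

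Among the 54 other pathway and interferon genes in the AGO2 table, 3 were higher and 1 lower in resilient pools, 4 higher and 4 lower in susceptible pools, and 1 was lower between susceptible and resilient pools. These are 7.41%, 14.8% and 1.85% of the 54, beside 17.7%, 18.9% and 2.14% of all genes, so the counts are not a result about the pathway. Stat2 and Irf9, which together carry the interferon signal to the nucleus, were called higher in both groups. Stat2 was 0.62 higher in resilient pools (limma adjusted p = 0.0152) and 0.57 in susceptible ones (limma adjusted p = 0.0187). Irf9 was 0.52 (limma adjusted p = 0.0512) and 0.56 higher (limma adjusted p = 0.036). The interferon-induced genes Isg15 (-2.10) and Rsad2 (-1.55) were lower in susceptible pools, and Igtp, with 3 to 25 reads per pool in these groups, 0.93 higher in resilient ones. Isg15 had 0 to 7 reads per susceptible pool, and without susceptible 1, at 0 reads, its difference was -1.39. Of the 209 Rsad2 reads of the control pools 118 were in control 4, without which the difference was -1.03. Of the class II promoter factors, Rfxap was 0.36 lower in resilient pools and Rfx5 0.30 higher in susceptible pools. Canx, a chaperone of new class I heavy chains, was 0.28 lower in susceptible pools, and 0.18 lower without susceptible 2. These values without a pool were computed after the data were seen. Irf7 was the gene called lower in susceptible than in resilient pools, with 0 to 10 reads per susceptible pool and 5 to 13 per resilient pool. Without susceptible 1, the pool with 0 reads, its difference of group means was -0.63.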

How the data were processed

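Log2 CPM values of blood mRNA (25 mice) and of AGO2-bound BNST mRNA (14 pools) were analysed as deposited. The authors aligned stranded reads to GRCm38 with STAR, counted them on exons with HTSeq, dropped low-count genes and turned the counts into log2 CPM by voom. Every value came back to a whole number of reads within 0.0001 reads, and these reads gave the depth of each library. Groups followed the sample labels, also for the 2 D2 mice whose column names differ.

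Comparisons were fitted on the whole table in limma 3.58.1 (R 4.3.3), 1 model per table, using empirical Bayes with a mean-variance trend. p-values were two-sided and adjusted by the Benjamini-Hochberg method over all genes of the table. Of the 10 genes, 65 member values were tested by exact two-sided permutation of the samples, and 3 of them had p under 0.05. The procedure was tested on simulated data. Correlations were computed in Python 3.11.15 with numpy 2.4.6. The members, pathway lists and cell type markers were chosen with earlier results of these data known. All 10 genes are named, then up to 6 called genes of the pathway lists with the smallest p per comparison, H2-Ea-ps, and the 8 genes most correlated with the class I and class II means.

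Alternatives were other weights, scalings, offsets, filters and sample sets, the title prefix as a term, the summed heavy chains, the D2 groups of the column names, a replicate block, and each sample left out. The study's cohort correction is not in the deposited values and was not repeated. The microRNA tables were not used here.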

Additional observations from a re-analysis of the deposited data

Results flagged for a closer look

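In 65 groups of 4 or 5 samples tested for a lone extreme sample by Dixon's criterion, 3 were found, where chance gives about 3.25. In blood, Tap1 of B6 susceptible 3 was 5.09 log2 CPM, while the other susceptible B6 mice had 5.72 to 5.96. In the AGO2 libraries, H2-K1 of control pool 2 was 1.71, while the other controls had 2.47 to 2.74. Tap1 of AGO2 susceptible pool 1 was 1.16, while the other susceptible pools had 1.77 to 1.88.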

How the results depend on the processing

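Of 689 values of the members computed under other settings, 678 kept their direction and their side of the threshold or were uncalled in both, 3 lost a call, 8 gained one and 0 called values reversed. Scaled to the recovered reads, 1 gene rather than 2 was called between the control groups of D2 and B6, and 0 rather than 1 in AGO2 susceptible pools against controls, and this scaling moved the median of all genes by -0.18 and -0.15 in the comparisons of B6 resilient and susceptible mice with controls. With the D2 groups of the column names, and without the 2 D2 mice in question, 1 gene (B2m) rather than 0 was called in D2 susceptible mice against controls and 1 in the interaction, and with the column names Tap1 (-0.53) was called too between the control groups. With the summed heavy chains in place of H2-K1 the strain difference was -0.08. Without the 3 B6 libraries of small effective size, 0 were called in the B6 comparisons.

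With each sample left out in turn, between 0 and 0 genes were called in B6 resilient mice against controls and in B6 susceptible against resilient mice, between 0 and 1 in B6 susceptible mice against controls, between 0 and 1 in D2 susceptible mice against controls, between 2 and 3 between the control groups, between 0 and 1 in the interaction, between 1 and 2 in AGO2 resilient pools against controls, and between 0 and 1 in AGO2 susceptible pools against controls and against resilient pools. In AGO2 the replicate numbers did not pair the pools: the same-number correlations ran from -0.17 to 0.14. A fit with the replicate block called 1, 1 and 0 genes in the 3 AGO2 comparisons, as the fit without it did, and B2m was -0.49 and -0.54 against controls. At 7 to 116 reads per gene, depth limits the AGO2 values.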
